A study of Mus musculus with 8 samples.

Results

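Lhx8, Ccno, Osbp2 and Lhx2 are 4 of the 55421 genes whose reads were counted in 8 RNA-seq libraries of mouse spermatogonial stem cell (SSC) culture, and 4 of the 20588 that passed the filter on low counts. Each is a single row of the count table. They were chosen from these data. The interaction is the log2 effect of NRRA in Stra8KO minus that in the cultures labelled Spo11KO. Lhx8, Ccno and Osbp2 had its most negative values among genes with an average log2 CPM (counts per 1000000) of 1 or more. Lhx2 had the largest deficit in Stra8KO cultures in vehicle (Veh) under the same limit. In both rankings the value had an adjusted p under 0.05, and predicted-gene and clone names were left out. NRRA is a nutrient restriction medium combined with retinoic acid. The values behind that choice are therefore a description, with no test. The exception is the Lhx2 comparison after NRRA, since Lhx2 was ranked on its Veh difference. The limit on average log2 CPM and the fitted spread used all 8 libraries, so this test was not fully independent of the choice. The groups were Stra8KO Veh, Stra8KO NRRA, Spo11KO Veh and Spo11KO NRRA, each with 2 libraries. All came from cultures of undifferentiated spermatogonia of C57BL/6XDBA/2 background, on a layer of arrested mouse embryonic fibroblasts. The SSC medium held N2, bFGF and GDNF. By the paper's recipe, nutrient restriction medium is mostly a balanced salt solution with a small part of SSC medium, so these were diluted in the NRRA groups. Wild-type cultures were not analysed here, so each difference between genotypes sets one knockout against another.

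STRA8 is induced by retinoic acid in germ cells and is needed for the meiotic gene program, whereas SPO11 is the enzyme that cuts DNA at the start of meiotic recombination. Lhx8 and Lhx2 encode LIM-homeodomain transcription factors, which bind DNA through a homeodomain and cofactors such as LDB1 through LIM domains. Lhx8 is known for its role in young oocytes and in forebrain neurons, and Lhx2 for its roles in eye, forebrain and hair follicle. Ccno encodes cyclin O, needed for the mass production of centrioles in multiciliated cells, and Osbp2 encodes a sterol-binding protein of the OSBP family that is needed late in spermatid development.

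The 4 genes lie on separate chromosomes of the GRCm38 assembly. Lhx8 spans chr3:154306294-154330659 on the minus strand, Ccno chr13:112987802-112990777 on the plus strand, Osbp2 chr11:3703731-3863903 on the minus strand and Lhx2 chr2:38339281-38369733 on the plus strand. Their promoters are shown because Lhx8, Ccno and Osbp2 were chosen on the same interaction. Each run holds the 250 bases before and the 50 bases after a RefSeq transcription start (GRCm38.p6), read 5′ to 3′ on the gene's own strand, with CG dinucleotides in capitals. The first listed start is given for Osbp2, which has 3 starts, and for Lhx2, which has 2.
Lhx8, chr3:154330511-154330810, minus strand: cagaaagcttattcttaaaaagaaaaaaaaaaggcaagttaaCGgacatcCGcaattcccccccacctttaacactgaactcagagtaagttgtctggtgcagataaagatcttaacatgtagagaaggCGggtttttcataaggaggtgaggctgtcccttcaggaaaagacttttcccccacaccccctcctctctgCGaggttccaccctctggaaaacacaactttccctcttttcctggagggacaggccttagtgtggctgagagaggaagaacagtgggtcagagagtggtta
Ccno, chr13:112987552-112987851, plus strand: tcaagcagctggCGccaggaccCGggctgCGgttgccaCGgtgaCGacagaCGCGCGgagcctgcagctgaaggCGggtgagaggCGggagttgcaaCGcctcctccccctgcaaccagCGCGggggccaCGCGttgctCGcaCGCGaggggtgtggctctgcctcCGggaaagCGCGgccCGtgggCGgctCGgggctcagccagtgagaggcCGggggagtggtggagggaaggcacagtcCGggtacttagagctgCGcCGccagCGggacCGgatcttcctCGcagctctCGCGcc
Osbp2, chr11:3863854-3864153, minus strand: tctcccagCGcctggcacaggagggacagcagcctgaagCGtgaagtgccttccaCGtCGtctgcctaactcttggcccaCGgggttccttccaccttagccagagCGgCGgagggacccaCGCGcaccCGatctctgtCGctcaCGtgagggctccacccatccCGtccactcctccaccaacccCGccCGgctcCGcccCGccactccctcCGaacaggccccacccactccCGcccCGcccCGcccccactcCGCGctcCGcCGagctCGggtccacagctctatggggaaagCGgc
Lhx2, chr2:38339031-38339330, plus strand: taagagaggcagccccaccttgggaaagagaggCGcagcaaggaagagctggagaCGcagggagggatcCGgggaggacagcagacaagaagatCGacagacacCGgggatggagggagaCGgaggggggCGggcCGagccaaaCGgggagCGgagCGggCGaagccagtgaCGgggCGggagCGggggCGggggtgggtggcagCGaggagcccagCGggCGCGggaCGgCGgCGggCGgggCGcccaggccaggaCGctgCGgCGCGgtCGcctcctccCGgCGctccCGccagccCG

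The Lhx8 promoter stood apart from the other 3 in base composition. It held 4 CG dinucleotides, against 33 in Ccno, 27 in Osbp2, 34 in Lhx2 and a median of 7 over 32851 RefSeq promoters of the same length. Its GC content was 47%, against 72%, 70.3% and 74.7% in the same order and a median of 52.7%. Over all starts of the 4 genes, both strands were searched for CNCCTCAG (a motif known for STRA8, present in 7.94% of all promoters), the E-box CACGTG (7.15%), the retinoic acid receptor half-site AGGTCA (16.3%) and the LIM homeodomain core TAATTA (5.29%). The single match was an E-box 107 bases before the printed Osbp2 start. A match is a description of the letters, not of a bound site.

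The libraries held 20960794 to 27038868 counts. Stra8, the gene targeted in the Stra8KO cultures, had 2 and 0 counts in Stra8KO Veh, 28 and 12 in Spo11KO Veh, 169 and 170 in Stra8KO NRRA and 12604 and 16191 in Spo11KO NRRA, and it was 64.9-fold lower in Stra8KO after NRRA. Spo11 had 147 counts in the pair of Spo11KO Veh libraries and 63 in Stra8KO Veh, and 275 against 134 after NRRA. Spo11 was also taken as a percentage of the geometric mean count of the 8 germ cell markers. The value was 2.05 ± 0.107 in Spo11KO Veh and 1.95 ± 0.129 in Stra8KO Veh. After NRRA it was 2.63 ± 0.527 in Spo11KO and 3.36 ± 0.077 in Stra8KO. Without a wild-type reference, gene counts could not settle a loss of Spo11. The paper reports no DMC1 foci after NRRA in its Spo11-deficient culture. The part of the gene that was deleted was not given in the sources used here, so the libraries are called those labelled Spo11KO. All 8 germ cell markers were lower and all 16 fibroblast markers higher in Stra8KO than in the libraries labelled Spo11KO, in both media. Germ cell markers took 0.0735% to 0.0912% of the counts in Stra8KO and 0.164% to 0.211% in the libraries labelled Spo11KO. Fibroblast markers took 2.59% to 4.11% and 1.47% to 2.47%. Sertoli markers took 0.0017% to 0.00444% and macrophage markers 0.00182% to 0.00232% of the counts in all libraries. Markers of undifferentiated spermatogonia, 11 genes, took 0.131% to 0.134% of the counts in Spo11KO Veh and 0.0335% to 0.0337% in Spo11KO NRRA, against 0.0543% to 0.0561% over the Stra8KO libraries. In bulk RNA, fewer cells of a type and less RNA per cell cannot be told apart. Values relative to germ cell markers are given below, but the part of germ cell content in the genotype differences was not tested.

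Lhx8, Ccno and Osbp2 were 26.5-, 4.50- and 4.83-fold higher after NRRA than in Veh in the cultures labelled Spo11KO, but in Stra8KO cultures Ccno and Osbp2 were lower after NRRA than in Veh and Lhx8 was slightly higher. Lhx2 behaved otherwise. It was high in the cultures labelled Spo11KO in Veh, lower there after NRRA, and low in Stra8KO cultures in both media. Of all tested genes, the NRRA effect was called in 41.5% for Stra8KO cultures and 50.3% for those labelled Spo11KO, the genotype difference in 62.1% in Veh and the interaction in 24.7%. The genes were chosen on these contrasts, so their values there are given as a description with no test. The 11 markers of undifferentiated spermatogonia moved with the same contrast in the opposite direction. All 11 fell with NRRA in the cultures labelled Spo11KO, against 5 that fell and 4 that rose in Stra8KO. Their interactions were all called positive, from 1.603 to 4.62 with a median of 2.65 (log2), against 14.6% of all tested genes, and their part in the values of Lhx8, Ccno and Osbp2 was not tested.

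**Figure D1:**
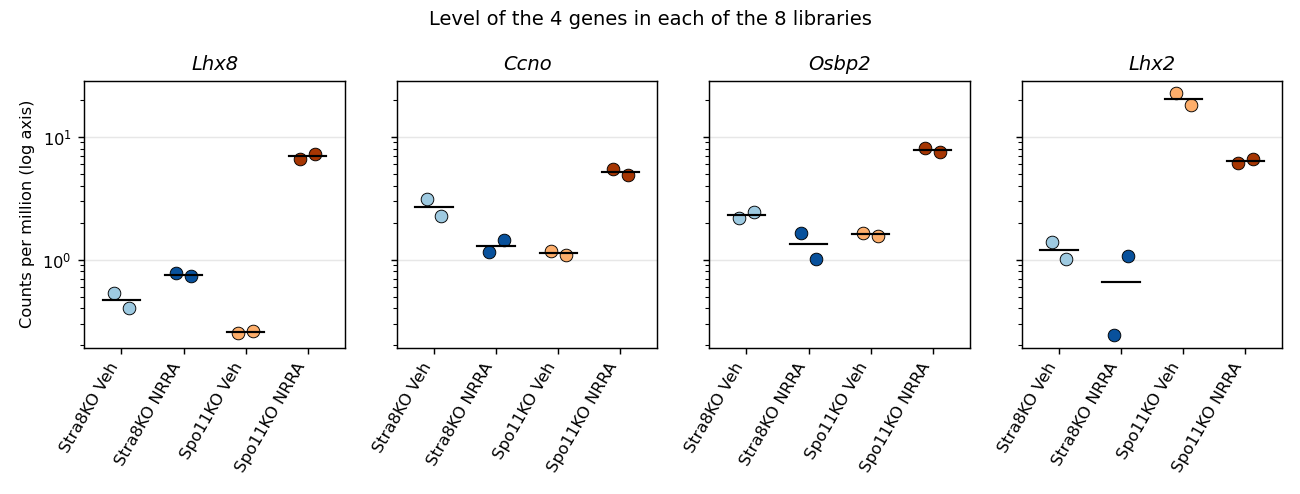
Level of Lhx8, Ccno, Osbp2 and Lhx2 in counts per 1000000 (CPM, log axis) in each of the 8 libraries, with a point per library and a line at the mean of the 2 libraries of a group. Lhx8, Ccno and Osbp2 are highest in Spo11KO NRRA, at means of 6.92, 5.14 and 7.78, and Lhx2 in Spo11KO Veh, at 20.4.

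Lhx8 counts were 6 and 6 in vehicle and 172 and 211 after NRRA in the cultures labelled Spo11KO, against 12 and 8 in vehicle and 16 and 16 after NRRA in Stra8KO. The gene was near the limit of detection in 6 libraries and well above it in the last 2. In counts per 1000000 (CPM) after TMM scaling, the cultures labelled Spo11KO went from 0.257 ± 0.0059 (SD, n = 2) in Veh to 6.92 ± 0.397 with NRRA, and Stra8KO from 0.470 ± 0.095 to 0.755 ± 0.024. The fitted log2 effect of NRRA was 4.73 (SE 0.29) in the cultures labelled Spo11KO and 0.67 (SE 0.46) in Stra8KO, an interaction of -4.06 (SE 0.67). All Stra8KO values lay above those of Spo11KO Veh and below those of Spo11KO NRRA. The fitted Stra8KO minus Spo11KO difference went from 0.87 (SE 0.58, log2) in Veh to -3.19 (SE 0.23) after NRRA. Its Veh value rests on 12 and 8 against 6 and 6 counts, too few to settle an order of the genotypes there.

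Ccno counts were 28 and 25 in vehicle and 140 and 143 after NRRA in the cultures labelled Spo11KO, against 69 and 45 in vehicle and 24 and 31 after NRRA in Stra8KO. In Stra8KO its level was 2.68 ± 0.580 CPM without and 1.29 ± 0.193 with NRRA, and these groups did not overlap. In the cultures labelled Spo11KO it was 1.13 ± 0.065 and 5.14 ± 0.370 CPM. NRRA thus went with opposite changes, a log2 effect of -1.05 (SE 0.27) in Stra8KO and 2.17 (SE 0.22) in the cultures labelled Spo11KO, and the interaction was -3.22 (SE 0.36). In Veh, Ccno was 2.37-fold higher in Stra8KO than in the libraries labelled Spo11KO, and after NRRA 3.94-fold lower. Stra8KO NRRA replicate 1, at 1.16 CPM, lay between the Spo11KO Veh libraries at 1.18 and 1.09, so these groups overlapped.

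Osbp2 counts were 39 and 36 in vehicle and 208 and 221 after NRRA in the cultures labelled Spo11KO, against 49 and 48 in vehicle and 34 and 22 after NRRA in Stra8KO. The level was 1.604 ± 0.054 and 7.78 ± 0.344 CPM in the cultures labelled Spo11KO in the same order, and 2.30 ± 0.159 and 1.33 ± 0.442 in Stra8KO. Both Stra8KO NRRA libraries lay below both Stra8KO Veh libraries, while Stra8KO NRRA and Spo11KO Veh met, at 1.641 and 1.642 CPM in their higher libraries. The NRRA effect was -0.80 (SE 0.28, log2) in Stra8KO and 2.27 (SE 0.19) in the cultures labelled Spo11KO, and the interaction -3.07 (SE 0.34). The Stra8KO effect was -1.17 without Stra8KO NRRA replicate 1 and -0.49 without replicate 2. The genotype difference turned from 0.52 (SE 0.26, log2) in Veh to -2.55 (SE 0.20) after NRRA, a pattern shared in direction by Lhx8 and Ccno.

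Lhx2 counts were 536 and 419 in vehicle and 159 and 193 after NRRA in the cultures labelled Spo11KO, against 31 and 20 in vehicle and 5 and 23 after NRRA in Stra8KO. Levels were 20.4 ± 3.07 CPM without and 6.36 ± 0.318 with NRRA in the former, and 1.197 ± 0.268 and 0.651 ± 0.580 in the latter. The Stra8KO NRRA libraries were far apart, at 0.241 and 1.06 CPM, and the higher of them lay within the Stra8KO Veh range of 1.01 to 1.39. In Veh, the Stra8KO minus Spo11KO difference that chose the gene was -4.07 (SE 0.20, log2), or 16.8-fold lower. NRRA went with a 3.20-fold lower level in the cultures labelled Spo11KO (log2 -1.68, SE 0.13) and with a log2 effect of -0.87 (SE 0.45) in Stra8KO. That last effect was -0.18 without Stra8KO NRRA replicate 1 and -2.30 without Stra8KO NRRA replicate 2. Without the latter the Lhx2 interaction went from 0.81 (SE 0.50) to -0.62, so the sign of the interaction rested on this library.

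Lhx2 was ranked on its Veh difference, though the expression limit and the fitted spread also used the NRRA libraries. It met that limit mainly through the cultures labelled Spo11KO. In the NRRA libraries Lhx2 was 9.58-fold lower in Stra8KO than in the cultures labelled Spo11KO. The log2 difference was -3.26 (SE 0.29, adjusted p = 5.99e-12, edgeR quasi-likelihood test with Benjamini-Hochberg adjustment over 20588 genes), and both Stra8KO libraries lay below both others. In this comparison 64.3% of all tested genes were called, at an adjusted p under 0.05, with 29.1% lower and 35.2% higher in Stra8KO, so a call as such was common. The difference was -2.58 (adjusted p = 3.48e-10) without Stra8KO NRRA replicate 1, which had 5 counts, and -4.69 (adjusted p = 5.54e-13) without Stra8KO NRRA replicate 2.

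**Figure D2:**
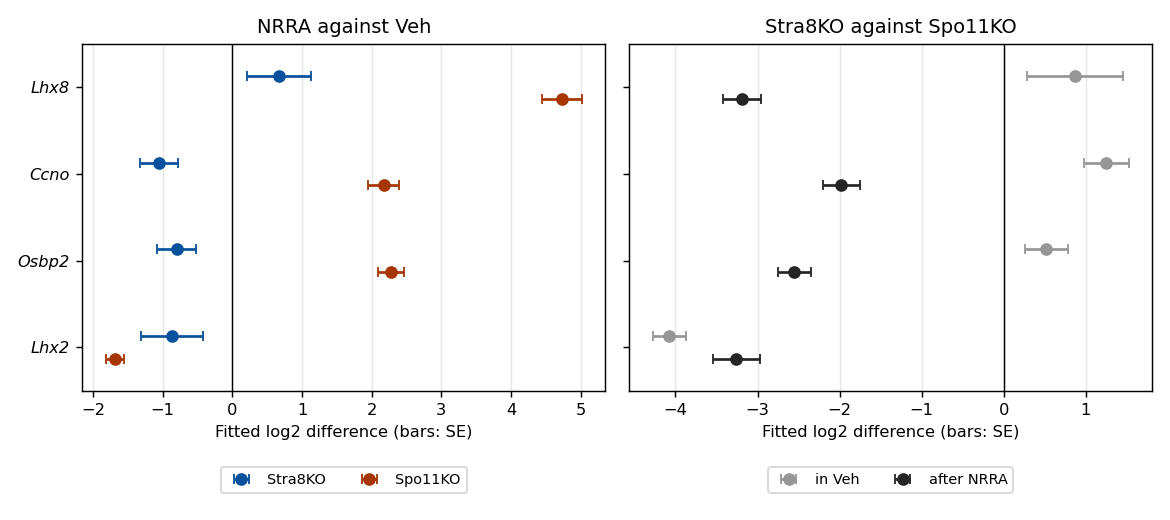
Fitted log2 differences of Lhx8, Ccno, Osbp2 and Lhx2 with standard errors as bars, for NRRA against Veh in each genotype (left) and for Stra8KO against Spo11KO in each medium (right). Lhx8, Ccno and Osbp2 sit at 2.17 to 4.73 for NRRA in the cultures labelled Spo11KO. Their fitted genotype differences are positive in Veh, for Lhx8 at 0.87 (SE 0.58) on few counts, and negative after NRRA. Lhx2 stays at -4.07 and -3.26.

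Values relative to germ cell markers kept these directions. As a percentage of the geometric mean count of the 8 germ cell markers in the same library, Lhx2 was 1.56 ± 0.341 in Stra8KO Veh and 13.3 ± 1.99 in Spo11KO Veh, and 0.702 ± 0.638 and 3.33 ± 0.145 after NRRA. Lhx8 was 0.803 ± 0.0015 in Stra8KO NRRA and 3.62 ± 0.185 in Spo11KO NRRA. Ccno was 1.38 ± 0.246 in Stra8KO NRRA and 2.69 ± 0.211 in Spo11KO NRRA, and Osbp2 1.41 ± 0.428 and 4.07 ± 0.205. With libraries scaled on these markers, which moved the median of all genes by about 1 log2 unit (0.9993 in Veh and 1.09 after NRRA), the Stra8KO minus Spo11KO difference after NRRA was -2.17 for Lhx8, -0.96 for Ccno, -1.53 for Osbp2 and -2.24 for Lhx2 (adjusted p = 4.99e-08), all log2. The Veh differences were then 1.86, 2.24, 1.51 and -3.08. The interactions hardly depended on this scaling, and lay between -4.15 and -4.03 for Lhx8, -3.32 and -3.20 for Ccno, and -3.16 and -3.04 for Osbp2 over the scalings, filters and tests tried.

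Compared per length, with exons of 2532 bases for Lhx8, 2555 for Ccno, 6361 for Osbp2 and 4393 for Lhx2, the genes changed places between groups. In Spo11KO Veh, Lhx2 led at 4.64 ± 0.699 RPKM (CPM per 1000 exon bases), ahead of Ccno at 0.444 ± 0.025, Osbp2 at 0.252 ± 0.0084 and Lhx8 at 0.101 ± 0.0023. In Spo11KO NRRA, Lhx8 led at 2.73 ± 0.157 RPKM, ahead of Ccno at 2.01 ± 0.145, Lhx2 at 1.45 ± 0.072 and Osbp2 at 1.22 ± 0.054. No neighbours in these orders overlapped. In Stra8KO, Ccno led in both media, at 1.05 ± 0.227 RPKM in Veh and 0.507 ± 0.075 after NRRA, and the other 3 genes lay between 0.148 and 0.362. After NRRA in Stra8KO, Lhx8 at 0.298 ± 0.0094 RPKM came before Osbp2 at 0.209 ± 0.070 and Lhx2 at 0.148 ± 0.132, and the libraries of the latter pair of genes overlapped.

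The members just inside and outside the choice were close in value. Where the average log2 CPM was 1 or more, the genes just outside the interaction of -3.07 of Osbp2 included Sema7a at -2.74 (SE 0.13) and Klhl32 at -2.43 (SE 0.57). In the Veh genotype difference, Lhx2 at -4.07 was followed by Stra8 at -4.03 (SE 0.83), which rests on 2 and 0 counts in Stra8KO, and by Mgl2 at -2.94 (SE 0.21) and Meiob at -2.69 (SE 0.35).

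Likeness of pattern was measured as the root mean square difference, over the 8 libraries, of log2 CPM (prior count 2) centred on each gene's mean, among 12983 genes. Among the genes most like Osbp2 were Unc5d, a netrin receptor gene, at 0.276, Cacna2d2, a calcium channel subunit gene, at 0.328, Npnt at 0.362 and Cadps2 at 0.391. Cacna2d2 was closest to Ccno, at 0.365, followed by Met at 0.405, Slc7a8 at 0.408, Nova1 at 0.415 and Osbp2 at 0.424. Ccno and Osbp2 were thus the pair of members most alike, since Lhx8 lay at 0.928 from Osbp2 and 1.06 from Ccno, and Lhx2 lay 2.03 to 2.58 from the other 3. Klhl32 at 0.634 and Arhgef26 at 0.639 were closest to Lhx8, followed by Cntn3 at 0.723, Elavl3 at 0.726 and Tfcp2l1 at 0.754. Lhx2 had no close match, with the olfactory receptor gene Olfr316 nearest at 0.866, and Mgl2 at 0.931, Hlf at 1.06 and Meiob, a meiotic recombination gene, at 1.10 among the next. Each distance uses the same 8 libraries that chose the genes, so these are descriptions.

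Related genes were taken from 7 lists of 97 genes around the roles of the members, of which 80 were tested. The interaction was called in 29 of the 80 (15 positive and 14 negative, 36.2%), against 24.7% of all tested genes, 14.6% positive and 10.1% negative. The median interaction of the 80 genes was -0.03 (log2), and of all genes 0.01. No gene of these lists had an interaction as negative as that of Lhx8, and the nearest to it was -3.73. Lhx8 was chosen for the most negative value, so this was largely fixed by the choice.

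**Figure D3:**
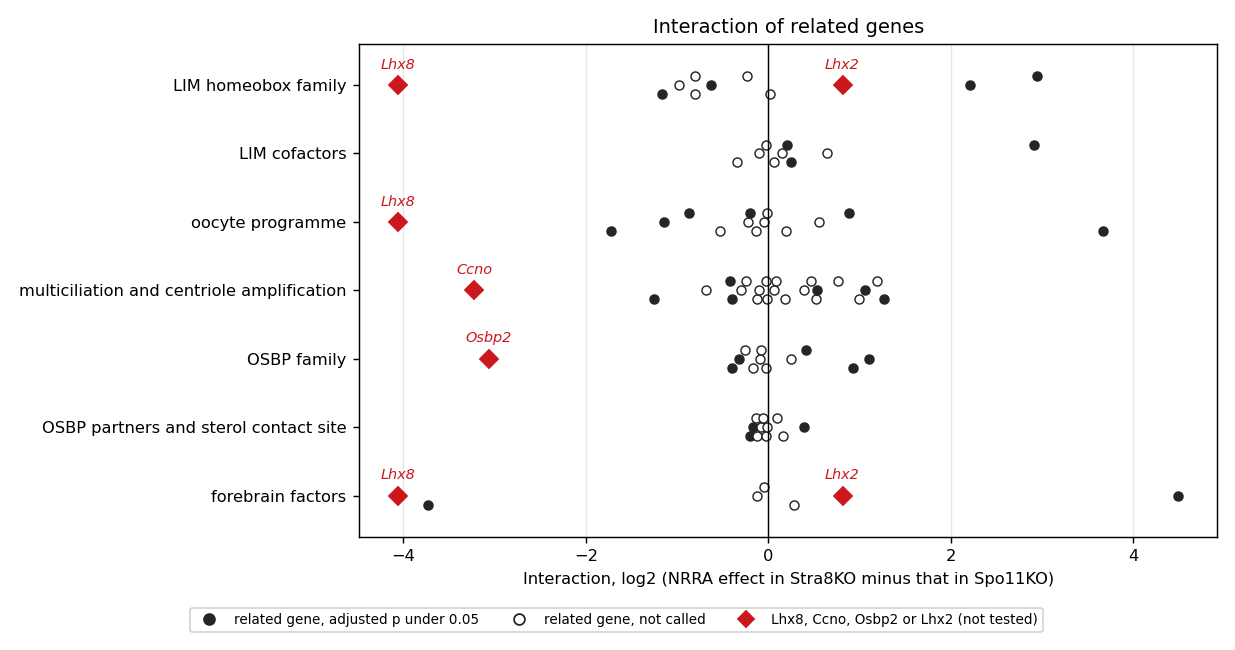
Interaction in log2 (difference of the NRRA effects, Stra8KO less the cultures labelled Spo11KO) of each tested gene in 7 related lists, with filled points for an adjusted p under 0.05, and of Lhx8, Ccno, Osbp2 and Lhx2 as diamonds. Lhx8, Ccno and Osbp2, chosen for this value, lie at -4.06, -3.22 and -3.07, to the left of their families. The points above 3 belong to Dppa3 and Gad1, which had 0 or 1 count in Spo11KO NRRA libraries.

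The LIM-homeobox family divided. Of 9 tested members other than Lhx8 and Lhx2, 2 had a called positive and 2 a called negative interaction (44.4%, median -0.63 log2). Lhx1, known as a target of the self-renewal factor GDNF in these stem cells, had 2635 and 2395 counts in vehicle and 115 and 157 after NRRA in the cultures labelled Spo11KO, against 1000 and 877 in vehicle and 303 and 363 after NRRA in Stra8KO. It fell with NRRA in both, with log2 effects of -1.5 (SE 0.08) in Stra8KO and -4.45 (SE 0.08) in the cultures labelled Spo11KO, and the interaction was 2.95 (SE 0.13, adjusted p = 8.2e-22). Lmx1a fell in the cultures labelled Spo11KO, from 183 and 155 counts to 33 and 27, with an interaction of 2.21 (SE 0.39, adjusted p = 1.89e-05). The 2 genes called negative were Lmx1b and Lhx6. Lmx1b, under the expression limit for named genes, had an NRRA effect of 1.10 (SE 0.27) in the cultures labelled Spo11KO and -0.06 (SE 0.28) in Stra8KO. Its interaction was -1.16 (SE 0.39, adjusted p = 0.0231), a call lost with DESeq2's Wald test (adjusted p = 0.102) and without several single libraries. Lhx6, a close relative of Lhx8, went the way of Lhx8 to a smaller extent. It rose with NRRA in the cultures labelled Spo11KO by 0.84 (SE 0.13, log2, adjusted p = 4.22e-07), with a value of 0.21 (SE 0.19, adjusted p = 0.387) in Stra8KO and an interaction of -0.63 (SE 0.23, adjusted p = 0.036). The Lhx6 call was lost with DESeq2's Wald test (adjusted p = 0.107) and without Stra8KO Veh replicate 1 (-0.51), Stra8KO NRRA replicate 1 (-0.55), Spo11KO Veh replicate 2 (-0.50) or Spo11KO NRRA replicate 2 (-0.60), and the family had 2 calls with Wald or without Stra8KO Veh replicate 1.

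The main LIM cofactor genes were well expressed in all groups. Ldb1, the cofactor that LIM-homeodomain proteins bind, had 4157 to 5809 counts and an interaction of -0.02 (SE 0.06, adjusted p = 0.829). Lmo4, which binds LDB1 in competition with them, had 1061 to 1947 counts and an interaction of 0.06 (SE 0.08, adjusted p = 0.654). Of 9 tested cofactors 3 were called, all positive (33.3%, median 0.15 log2). Lmo2, best known from blood development, had the largest value, 2.92 (SE 0.32, adjusted p = 1.27e-09), as it fell with NRRA from 104 and 113 counts to 27 and 26 in the cultures labelled Spo11KO and rose from 54 and 47 to 70 and 89 in Stra8KO. Ssbp3 and Rlim were called at 0.25 (SE 0.05) and 0.20 (SE 0.06), and the Rlim call was lost under several alternatives.

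Tested genes listed for the oocyte programme, in which Lhx8 acts, mostly rose with NRRA in the cultures labelled Spo11KO. The list is not specific to oocytes, since the genes that rose included Sohlh1, also a factor of differentiating spermatogonia. Of 13 tested genes of 22 listed, 9 rose and 3 fell in the cultures labelled Spo11KO, 5 rose and 2 fell in Stra8KO, and the interaction was called positive in 2 and negative in 4 (46.2%, median -0.14 log2). The background of calls for the NRRA effect was 50.3% in the cultures labelled Spo11KO (24.7% up, 25.5% down) and 41.5% in Stra8KO (21.4% up, 20.1% down). Nobox, an oocyte homeobox gene, had 18 and 8 counts in vehicle and 63 and 79 after NRRA in the cultures labelled Spo11KO, against 16 and 19 in vehicle and 21 and 28 after NRRA in Stra8KO. Its Spo11KO NRRA libraries stood above all others, as those of Lhx8 did, and the NRRA effect was 2.20 (SE 0.32, log2, adjusted p = 1.68e-07) there and 0.48 (SE 0.38, adjusted p = 0.336) in Stra8KO. The interaction of -1.72 (SE 0.52, adjusted p = 0.0123) lost its call without Stra8KO Veh replicate 2 (-1.51, adjusted p = 0.102) or Spo11KO Veh replicate 2 (-1.28, adjusted p = 0.0986), and without the latter the list had 3 calls.

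Other oocyte factors varied. Figla, which like Nobox encodes an early oocyte transcription factor, had an NRRA effect of 1.31 (SE 0.27, adjusted p = 8.8e-05) in the cultures labelled Spo11KO and 0.78 (SE 0.36, adjusted p = 0.0832) in Stra8KO, with an interaction of -0.54 (SE 0.47, adjusted p = 0.467). Sohlh1, a factor of early oocytes and of differentiating spermatogonia, rose in both, by 2.01 (SE 0.07) and 1.78 (SE 0.08), with an interaction of -0.23 (SE 0.11, adjusted p = 0.142). Kit, the stem cell factor receptor, rose in both as well, by 5.96 (SE 0.07) and 5.09 (SE 0.07), from 109 to 126 counts in Veh to 8395 and 9925 in Spo11KO NRRA and 3752 and 3758 in Stra8KO NRRA. Its interaction was -0.87 (SE 0.13, adjusted p = 1.61e-06). Ybx2, a germ cell RNA-binding protein gene, rose in the cultures labelled Spo11KO by 0.87 (SE 0.10), had a value of -0.27 (SE 0.17, adjusted p = 0.224) in Stra8KO and an interaction of -1.14 (SE 0.20, adjusted p = 1.86e-05). Jag1, a Notch ligand gene of oocytes, had a positive interaction of 0.89 (SE 0.08, adjusted p = 3.83e-12). Of the oocyte effector genes, Gdf9, Bmp15, Zp1, Zp2 and Npm2 had at most 14 counts in any library and were not tested. Zp3 was tested and fell with NRRA in both, with log2 effects of -1.09 (SE 0.22) in the cultures labelled Spo11KO and -1.13 (SE 0.26) in Stra8KO. Its interaction was -0.05 (SE 0.35, adjusted p = 0.946). Nlrp14, also on the list, rose in both, by 0.48 (SE 0.10) and 1.04 (SE 0.21), with an interaction of 0.56 (SE 0.24, adjusted p = 0.0893).

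Multiciliation genes did not follow Ccno as a group. Mcidas and Gmnc, the regulators that switch on Ccno in multiciliated cells, had 16 counts and 2 counts over all 8 libraries and were not tested. Foxj1, the ciliary transcription factor, went from 62 and 69 counts to 18 and 21 in the cultures labelled Spo11KO, a log2 effect of -1.98 (SE 0.28, adjusted p = 1.18e-07), where Ccno was 4.50-fold higher. Of 22 tested genes, 3 had a called positive and 3 a called negative interaction (27.3%, median 0.07 log2). Rfx2, a ciliary and spermatid transcription factor gene, was the one closest to Ccno in direction. It had 111 and 103 counts in vehicle and 271 and 317 after NRRA in the cultures labelled Spo11KO, against 50 and 61 in vehicle and 44 and 65 after NRRA in Stra8KO, and an interaction of -1.25 (SE 0.28, adjusted p = 0.000529). Rsph1, a radial spoke gene, and Ccdc40, a ciliary axoneme gene, went the other way, at 1.27 (SE 0.32, adjusted p = 0.00204) and 1.06 (SE 0.21, adjusted p = 0.000105). Dnah5, an axonemal dynein gene, had an interaction of 0.99 (SE 0.38, adjusted p = 0.0515). Deup1, a gene of the structures that build centrioles in bulk, had 1 to 15 counts and was not tested.

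Osbp2 was chosen for its extreme interaction, so less negative values in the OSBP family and its partners follow from that choice. Osbp, the closest relative of Osbp2, had 1572 to 2518 counts and an interaction of -0.10 (SE 0.08, adjusted p = 0.425). Of 11 family members, 3 were called positive and 2 negative (45.5%, median -0.08 log2), with values from -0.40 to 1.11. Osbpl3 and Osbpl6 had the largest, at 1.11 (SE 0.10, adjusted p = 4.44e-12) and 0.93 (SE 0.15, adjusted p = 7.55e-06), opposite in sign to Osbp2, and Osbpl10 was called at 0.42 (SE 0.15, adjusted p = 0.0412), a call lost under several alternatives. Vapa and Vapb, which anchor OSBP proteins to the endoplasmic reticulum, had interactions of -0.03 (SE 0.07, adjusted p = 0.824) and 0.09 (SE 0.06, adjusted p = 0.324). Among 11 partners and sterol contact site genes 3 were called (27.3%, median -0.06 log2), none beyond 0.40, and with no scaling beyond total counts 6 were called.

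The forebrain list, chosen because Lhx8 and Lhx2 act there, was mostly near the limit of detection, and 5 of its 8 genes were tested. Dlx1, a homeobox gene of the same forebrain neurons as Lhx8, was singled out after its values were seen, and lies under the expression limit for named genes. It had 9 and 4 counts in vehicle and 50 and 64 after NRRA in the cultures labelled Spo11KO, against 20 and 11 in vehicle and 10 and 7 after NRRA in Stra8KO, with an interaction of -3.73 (SE 0.66, adjusted p = 2.36e-05). Its neighbour Dlx2 had 13 to 39 counts, with no group apart from the rest. Emx2, a forebrain and urogenital gene, was higher in Stra8KO by 1.21 (SE 0.12, log2) in Veh and 1.17 (SE 0.09) after NRRA, and had an interaction of -0.04 (SE 0.15, adjusted p = 0.879). The 16 fibroblast markers were higher in Stra8KO by medians of 1.003 and 0.975 in the same comparisons. Any part of feeder content in the Emx2 difference was not tested. Nkx2-1 was at 0 in all libraries, which allows up to 3 counts per library. The second call of the list was Gad1, with 0 counts in both Spo11KO NRRA libraries. Its call was lost without each library except Spo11KO Veh replicate 2, with adjusted p from 0.0653 to 0.178.

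Between genotypes, list counts turned with the scaling. Of the 22 multiciliation genes, 17 were lower and 2 higher in Stra8KO in Veh, and 1 lower and 8 higher when libraries were scaled on germ cell markers. Of the 13 oocyte programme genes, 8 were lower in Stra8KO in Veh, against 2 lower and 8 higher with that scaling. Of all 20588 tested genes, 6476 were higher and 6315 lower in Stra8KO in Veh, against 15968 higher and 373 lower scaled on germ cell markers. Most genes were thus higher with that scaling, and the median of the multiciliation genes, 0.26 (log2), and of the oocyte genes, 0.61, lay below the 0.9993 of all genes. The genotype differences of Lhx8, Ccno, Osbp2 and Lhx2 had the same sign under both scalings.

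Genes beside the members on the chromosome were examined within 200 kb. Lhx8 had 1 protein-coding neighbour, Slc44a5, with 47 counts in all, which was not tested. Ccno lies beside Mcidas, 3.1 kb away, and Cdc20b, 44.3 kb away, a cluster of multiciliation genes. Cdc20b had 12 to 56 counts and an interaction of 0.08 (SE 0.54, adjusted p = 0.942). The Ccno neighbours Dhx29, Mtrex and Gpx8 lay between -0.15 and -0.03, and Plpp1, 119.9 kb away, was called at -0.43 (SE 0.13, adjusted p = 0.0102), a call lost without Stra8KO Veh replicate 1 (-0.38), Stra8KO NRRA replicate 2 (-0.31) or Spo11KO Veh replicate 2 (-0.32). Of the 12 tested neighbours of Osbp2, Slc35e4, 43.1 kb away, was called, at -0.65 (SE 0.15, adjusted p = 0.00108). It fell with NRRA in both genotypes, whereas Osbp2 was higher in one. Inpp5j, 198.9 kb away and with 3 to 19 counts, had -1.91 (SE 0.80, adjusted p = 0.0798). Beside Lhx2, Dennd1a had -0.15 (SE 0.09, adjusted p = 0.267) and Nek6, 141.9 kb away, 0.32 (SE 0.06, adjusted p = 0.000182). No exon of a member overlapped an exon of another annotated gene, though antisense genes lie within Lhx2 and a snoRNA within Osbp2.

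**Figure D4:**
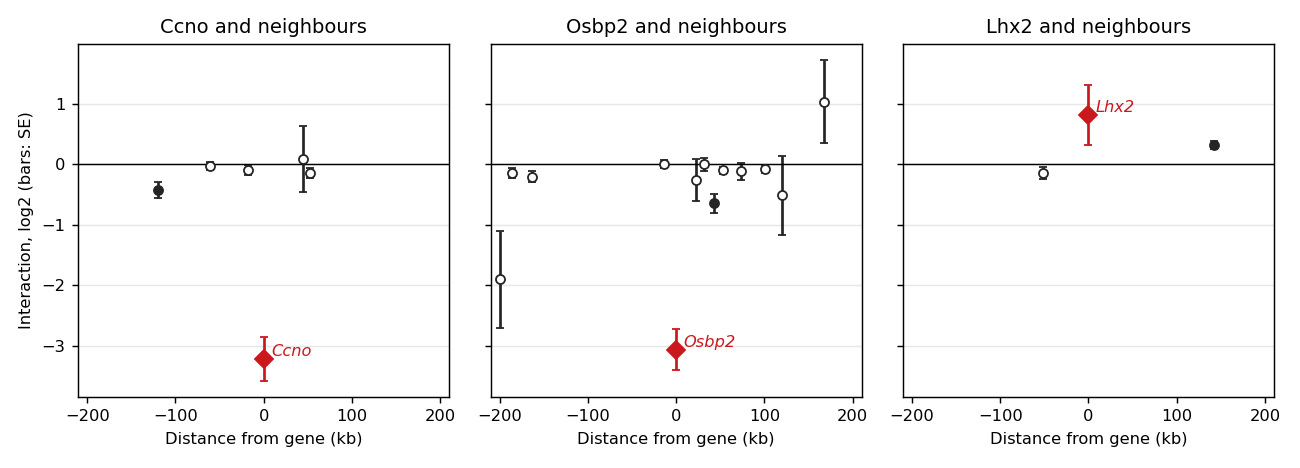
Interaction in log2, with standard errors as bars, of tested protein-coding genes within 200 kb of Ccno, Osbp2 and Lhx2, against distance from the gene in kb, with filled points for an adjusted p under 0.05 and the member itself as a diamond at 0. Neighbours of Ccno lie between -0.43 and 0.08, while Ccno, chosen for this value, is at -3.22.

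Leaving out single libraries kept the sign of the interactions of Lhx8, Ccno and Osbp2. The values ran from -4.24 to -3.83 for Lhx8, -3.42 to -2.98 for Ccno and -3.45 to -2.76 for Osbp2. For Osbp2 both ends came from the Stra8KO NRRA libraries, whose counts of 34 and 22 were the most unequal of its pairs. The Lhx2 difference after NRRA had the widest range, -4.69 to -2.58, from the same group.

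**Figure D5:**
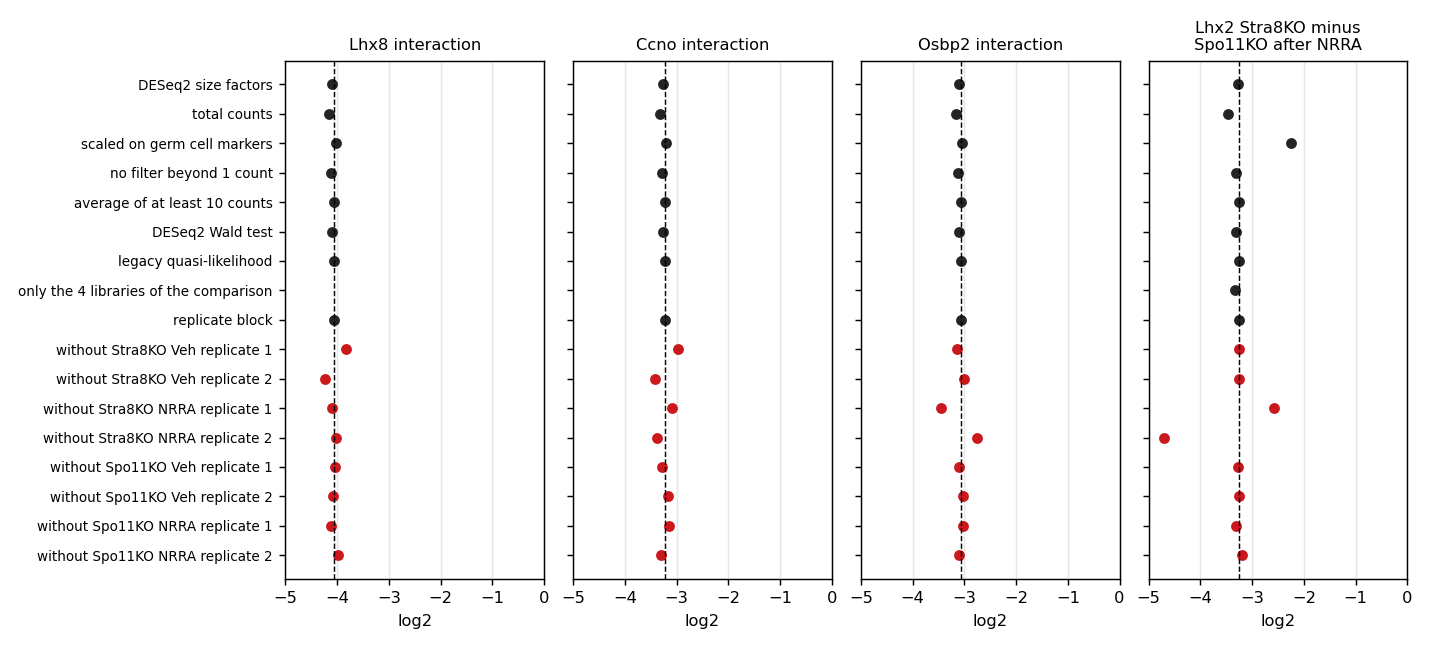
Interaction of Lhx8, Ccno and Osbp2 and the Stra8KO minus Spo11KO difference of Lhx2 after NRRA, in log2, under each scaling, filter and test (dark points) and without each library in turn (red points), with the reported value as a dashed line. Interactions stay within -4.24 to -2.76, and Lhx2 moves most without a Stra8KO NRRA library (-4.69 and -2.58) and with germ cell marker scaling (-2.24).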

How the data were processed

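RNA was extracted with Trizol and made into poly(A) mRNA libraries. The authors deposited raw counts for each Ensembl gene in 1 table, not normalized, with a column per library and 0 columns without a sample. Per the submitters' notes, bcl2fastq, STAR 2.6.1c and featureCounts 1.6.4 were used with mm10; the strand setting, annotation release and treatment of multi-mapping reads were not given in the sources used here. Symbols came from the table and positions from GENCODE M21, which held 99.67% of the identifiers.

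Members and lists were chosen with earlier results of these data known. Named genes were, per list, up to 3 called genes by interaction and up to 3 by Veh genotype difference where average log2 CPM was 1 or more, plus fixed partners, neighbours within 200 kb and the 5 most alike genes per member. A few genes that these rules name are not reported here. Counts were fitted with edgeR 4.0.16 in R 4.3.3: filterByExpr, TMM, 1 group-means model over all 8 libraries, robust quasi-likelihood F tests, two-sided, Benjamini-Hochberg adjusted. SE is the absolute log2 value over the square root of F. Fits were tested on simulated data. DESeq2 1.42.0, other scalings and filters, and leaving out each library were alternatives. Replicates are described by the study as independent and biological, and in general as drawn from different mice, tissues or cells; which of these applied to the sequenced cultures is not given in the sources used here, so p-values measure the spread between these libraries. Replicates of a group differed beyond counting noise (mean chi-square per gene 1.86 to 4.12 at 20 or more counts in the pair, where counting noise alone gives 1). CPM intervals were not computed, and reads without molecular identifiers give counting error only.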

Additional observations from a re-analysis of the deposited data

Results flagged for a closer look

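For Ccno and Osbp2, both NRRA libraries lay below both Veh libraries in Stra8KO and above them in the cultures labelled Spo11KO. The share of all genes with such a separation of 2 against 2 libraries was not computed. The interactions were -3.22 and -3.07 (log2). These interactions were not tested, because they chose the genes. Lmx1b and Gad1, called but not named by rule, are left out here. Of the related and neighbouring genes named by rule, with Dlx1, 24 had an NRRA effect that differed by genotype. This was in the test of the interaction itself (edgeR, adjusted p under 0.05). Many were named because of that call, and Dlx1 after its values were seen, so this count is no share to set against a background. Over the related lists as a whole, 29 of 80 tested genes were called (36.2%), against 24.7% of all tested genes. Negative values, in the direction of Lhx8, Ccno and Osbp2, were found for Dlx1 (-3.73), Nobox (-1.72), Rfx2 (-1.25), Ybx2 (-1.14), Kit (-0.87), Slc35e4 (-0.65), Lhx6 (-0.63), Plpp1 (-0.43), Npc1 (-0.20), Sohlh2 (-0.20) and Npc2 (-0.17). Positive values were found for Lhx1 (2.95), Lmo2 (2.92), Lmx1a (2.21), Rsph1 (1.27), Osbpl3 (1.11), Ccdc40 (1.06), Osbpl6 (0.93), Jag1 (0.89), Osbpl10 (0.42), Stard4 (0.40), Nek6 (0.32), Ssbp3 (0.25) and Rlim (0.20).

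Several of these calls rested on single libraries. Besides those of Lhx6, Nobox and Plpp1, the Rlim call was lost without Stra8KO Veh replicate 2 (0.17), Stra8KO NRRA replicate 1 (0.17) or Spo11KO Veh replicate 2 (0.16). The Osbpl10 call was lost without Stra8KO Veh replicate 2 (0.32), either Stra8KO NRRA library (0.37 and 0.47), Spo11KO Veh replicate 2 (0.37) or Spo11KO NRRA replicate 1 (0.29). For Npc1, the libraries were Stra8KO Veh replicate 1 (-0.18), Stra8KO NRRA replicate 2 (-0.18), Spo11KO Veh replicate 1 (-0.18) and Spo11KO NRRA replicate 2 (-0.17). For Sohlh2, they were Stra8KO Veh replicate 1 (-0.16), Stra8KO NRRA replicate 2 (-0.16), Spo11KO Veh replicate 2 (-0.18) and Spo11KO NRRA replicate 2 (-0.18). The Npc2 call was lost without Stra8KO Veh replicate 2 (-0.16). Groups of 2 libraries are too small to test for outlying libraries.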

How the results depend on the processing

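The signs of the Lhx8, Ccno and Osbp2 interactions and of both Lhx2 genotype differences were the same under all 8 or 9 other settings and without each library, and the Lhx2 difference after NRRA kept its call in all. Without single libraries, values ranged from -4.24 to -3.83 for Lhx8, -3.45 to -2.76 for Osbp2, -3.42 to -2.98 for Ccno, -4.33 to -3.88 for Lhx2 in Veh and -4.69 to -2.58 for Lhx2 after NRRA, and list calls of the interaction from 2 to 3 (LIM homeobox, 4 with all libraries), 1 to 2 (forebrain, 2) and 3 to 6 (oocyte programme, 6). Scaled on germ cell markers, the Lhx2 difference in Veh was -3.08. With total counts, 6 OSBP partner genes were called, against 3. With DESeq2's Wald test, 2 LIM homeobox genes were called, and 1 forebrain gene, as with no filter beyond 1 count. The cause was not tested.

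Interaction calls over all genes were 3014 positive and 2080 negative (59.2% positive), against 2160 and 3415 (38.7%) with total counts and 2136 and 2482 (46.3%) with no filter. Genotype calls in Veh were 6476 higher and 6315 lower in Stra8KO, against 15968 and 373 scaled on germ cell markers. Of the named interactions, the Rlim call was lost with total counts (0.11), no filter (0.14) and Wald (0.17), and that of Osbpl10 with those and with DESeq2 size factors (0.33, 0.35, 0.39 and 0.39). The Sohlh2 call was lost when scaled on germ cell markers (-0.175, adjusted p = 0.0557). Calls were gained for Sohlh1 (-0.32) and Dennd1a (-0.24) with total counts, and for Dnah5 scaled on germ cell markers (1.02), with a minimum average of 10 counts, with the legacy quasi-likelihood test and with the replicate block (0.99 in each).

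The shared replicate numbers did not pair the samples (correlations of deviations -0.027 to 0.056). With the replicate block, the interaction calls were 5075, against 5094, and Lhx2 after NRRA was -3.26. Lhx8 in Spo11KO Veh, at 6 counts per library, limits its fold change.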
